A study of Homo sapiens with 9 samples.

Results

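Cytosolic ribosomal proteins are the protein part of the ribosome, the particle that translates messenger RNA in the cytoplasm. The ribosomal protein genes described here were the protein-coding rows of the count table whose symbol begins RPL or RPS followed by digits, together with RPLP0, RPLP1, RPLP2 and RPSA. RPS6 kinases, pseudogenes and antisense genes were left out. The rule found 84 genes among the 26240 rows. Of these, 76 encode canonical ribosomal proteins, 46 of the large and 30 of the small subunit. Another 7 are paralogs with a parent gene in the set, and RPS19BP1 shares only the letters of its symbol and encodes a protein that binds RPS19. The filter on low counts kept 83 of the 84 and removed RPL3L, so all 76 canonical members were tested.

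The libraries came from definitive endoderm, the embryonic layer that gives rise to gut, liver and pancreas, differentiated from the human embryonic stem cell line H9. CHD7, a chromatin remodeller of the chromodomain family, had been deleted with CRISPR/Cas9. The 3 genotypes were homozygous mutant (CHD7-/-), heterozygous mutant (CHD7+/-) and wild type (CHD7+/+), with 3 libraries each. The labels name no clone, culture or differentiation batch behind a library, and p-values therefore measure only how these libraries vary, perhaps for technical reasons.

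Total counts ran from 11854173 to 29849352 in homozygous, from 23488722 to 30581464 in heterozygous and from 24781297 to 37519729 in wild-type libraries. CHD7 itself was at 56.0, 42.9 and 55.4 CPM in the homozygous libraries, at 110, 130 and 129 CPM in the heterozygous ones and at a mean of 193 CPM in the wild type, and the libraries of the 3 genotypes did not overlap. CPM is a gene's count scaled to the depth of its library, here with TMM-adjusted library sizes. The endoderm marker SOX17 stood between 584 and 663 CPM in homozygous, between 562 and 666 CPM in heterozygous and between 701 and 731 CPM in wild-type libraries. FOXA2, CER1 and HHEX, 3 of 9 endoderm markers, were called lower in homozygous than in wild-type cells, and HHEX no longer passed with wild-type replicate 2 left out (edgeR adjusted p = 0.0617). Of all tested genes, 7.68% were called in this comparison, in either direction. GATA3, the only 1 of 4 trophectoderm markers with enough counts to test, was called higher in homozygous cells, at 2.64 to 3.17 CPM against 1.04 to 1.28 CPM in the wild type. In bulk RNA, fewer cells of a type and less RNA per cell cannot be told apart. The homozygous replicate 2 and the heterozygous replicate 3 stand apart for ribosomal protein genes, and the main results are given with and without them.

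Ribosomal protein messages are among the most abundant in growing cells. Most begin with a 5′ terminal oligopyrimidine (TOP) tract, a cytosine followed by a run of pyrimidines, through which LARP1 and the kinase mTOR adjust their translation together. Because the subunits are built in fixed proportion, these genes are usually expressed in step, and loss of a single copy of some of them causes Diamond-Blackfan anaemia. Free RPL5, RPL11 and RPL23 can bind MDM2 and so stabilise p53 when ribosome assembly fails.

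The start sites of the members whose spread is described below show this shared feature and its absence. In RefSeq promoter windows (GRCh38.p14), 62 of the 76 canonical members and 5 of the 7 paralogs were matched. A run of at least 6 C or T letters that begins with C within 5 bases of a listed start was found on the sense strand for 52 of the 62 canonical members (83.9%), for 2 of the 5 paralogs (40.0%) and for 3751 of all 27305 genes with such a window (13.7%). The 30 bases around a start are given for the 5 canonical members with the widest spread within genotypes, for the narrow-spread RPL4 and for 2 paralogs, with the run in capitals. The windows lie at chr19:8321481-8321510 (plus strand) for RPS28, chr14:49598696-49598725 (minus) for RPS29, chr6:132814554-132814583 (plus) for RPS12, chr17:8383179-8383208 (minus) for RPL26, chr19:41860240-41860269 (plus) for RPS19, chr15:66504841-66504870 (minus) for RPL4, chr6:42879601-42879630 (plus) for RPL7L1 and chr15:63157463-63157492 (minus) for RPS27L.
RPS28: tccccgaagcacgtgaCTCCTCTCCgccag
RPS29: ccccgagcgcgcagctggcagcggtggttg
RPS12: gcgtgcggatgaggCCTCTTTCCCTgccgc
RPL26: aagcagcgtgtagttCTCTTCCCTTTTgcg
RPS19: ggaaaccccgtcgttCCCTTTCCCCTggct
RPL4: tacagcgggagtggtaagcaCTTCCTTTTC
RPL7L1: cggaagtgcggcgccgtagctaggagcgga
RPS27L: aagttgatgccgagcgcagatcgcttgcag
Among these, RPS29, RPL7L1 and RPS27L hold no such run at the listed start, which says only that the letters are not in this window. The run is 9 bases long in RPS28, 11 in RPS12 and RPS19, and 12 in RPL26 and RPL4, where the last bases of the RPL4 run lie beyond the window shown, so members with wide and with narrow spread both carry it.

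No ribosomal protein gene was called between genotypes. In the comparison of homozygous with wild-type cells, 0 of 83 members passed an adjusted p of 0.05 in edgeR's quasi-likelihood test, where 7.68% of all 16837 tested genes did. Between heterozygous and wild-type cells 0 of 83 members passed, against 1.86% of all genes, and between homozygous and heterozygous cells 0 of 83, against 2.21%. DESeq2 also called 0 members in each comparison, against 10.5%, 3.41% and 5.47% of all genes, and so did limma-voom, against 7.87%, 1.98% and 2.1%. At an unadjusted p below 0.05, edgeR had 2 members (RPS15A and RPL39L) for homozygous against wild type, 0 for heterozygous against wild type and 17 for homozygous against heterozygous, with a positive log2 fold change for each. The corresponding shares of all tested genes were 23.2%, 13.5% and 18.3%. These unadjusted counts turned on single libraries. The shares of all genes in the fits with a library left out were not computed. Whether the members' counts moved more than those of other genes therefore cannot be said. The 17 were 0 without homozygous replicate 2, 0 without heterozygous replicate 3, 2 without heterozygous replicate 2, 36 without heterozygous replicate 1, 26 without homozygous replicate 1 and 50 without homozygous replicate 3, and with any wild-type library left out they were 9 or 10. The 2 for homozygous against wild type were 34 without homozygous replicate 3, 12 without homozygous replicate 1, 4 without heterozygous replicate 3, 3 without heterozygous replicate 1, 1 without heterozygous replicate 2, and 0 without homozygous replicate 2 or any wild-type library. A p that misses the threshold does not show that levels were equal. The median standard error of a member's log2 fold change was 0.12 in each comparison, against 0.15 for all tested genes.

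The members leaned upwards in homozygous cells by an amount that rested on 1 library. The median log2 fold change of the 83 members was 0.14 for homozygous over wild type, with 76 members positive and 7 negative, where the median of all tested genes was 0.010. For homozygous over heterozygous it was 0.19, with 78 positive and 5 negative, against 0.0068 for all genes. Heterozygous over wild type gave -0.044, with 17 positive and 66 negative, against 0.0037 for all genes. Without homozygous replicate 2 the member median for homozygous over wild type was -0.015 and that for homozygous over heterozygous was 0.023. Without heterozygous replicate 3 the median for heterozygous over wild type was 0.0057 and that for homozygous over heterozygous 0.12, and with both libraries left out the medians were -0.015, 0.0070 and -0.034 for homozygous over wild type, heterozygous over wild type and homozygous over heterozygous.

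**Figure D1:**
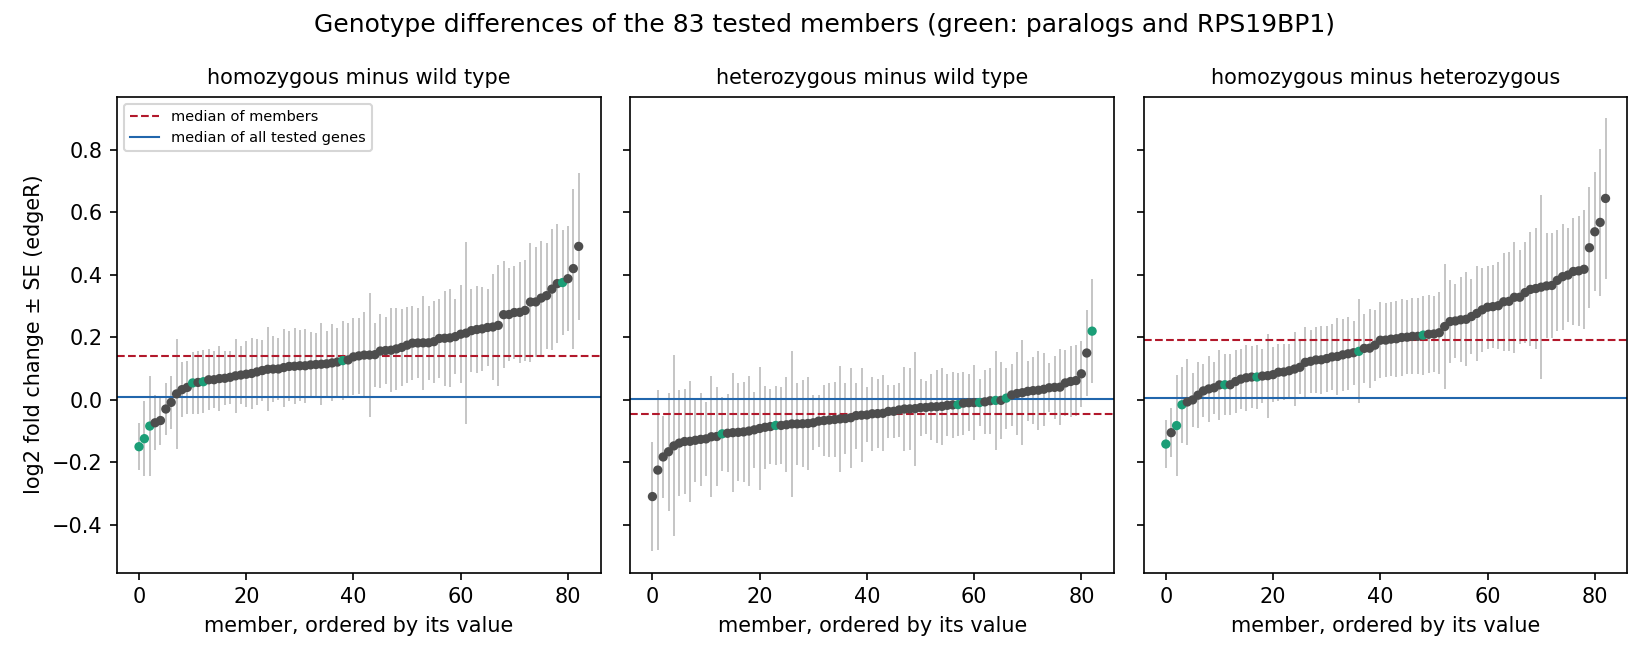
Log2 fold changes of the 83 tested ribosomal protein genes in the 3 comparisons (y axis, points, with bars for the standard error from edgeR), each ordered along the x axis by its value. The dashed line is the members' median (0.14, -0.044 and 0.19 from left to right) and the solid line the median of all tested genes; green points are the paralogs and RPS19BP1.

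Few members had libraries of 2 genotypes that did not overlap. All homozygous libraries lay above all wild-type libraries for RPL18 and RPS19, which is 2.41% of the 83 members where 13.2% of all tested genes did so, and below them for RPL7L1, where 15.7% of all genes did. All heterozygous libraries lay below all wild-type libraries for RPL17, where 11.1% of all genes did, and above them for 0 members, again against 11.1%. Homozygous and heterozygous libraries overlapped for every one of the 83 members, while 9.02% of all genes lay above and 10.5% below.

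What separated the libraries was a shift shared by nearly all ribosomal protein genes within a genotype. Members took 6.20%, 7.92% and 5.72% of all counts in homozygous replicates 1, 2 and 3, then 6.45%, 5.72% and 5.49% in their heterozygous counterparts, and 5.98%, 5.69% and 5.94% in the wild-type replicates. The homozygous replicate 2 is above the other 8 libraries, and without it the homozygous and heterozygous values span those of the wild type. Of the 83 tested members, 80 had their highest CPM of all 9 libraries in homozygous replicate 2. The lowest CPM fell in heterozygous replicate 3 for 49 members and in homozygous replicate 3 for 21.

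The same shift is seen as each library's deviation from its genotype mean on the log2 scale, taken as the median over the 83 members. The homozygous replicates deviated by -0.099, 0.28 and -0.20, the heterozygous ones by 0.17, -0.035 and -0.12, and the wild-type ones by 0.0058, -0.049 and 0.037. In homozygous replicate 2, 82 of 83 members were above their genotype mean, and in homozygous replicate 3, 82 were below it. A gene's deviations within a genotype cancel, so a high library by itself sets others below the mean. The large and small subunits moved alike: in homozygous replicate 2 the median deviation was 0.28 for the 46 large-subunit genes and 0.29 for the 30 small-subunit genes. The ratio of large-subunit to small-subunit counts was 1.60 ± 0.0122 in homozygous, 1.62 ± 0.00952 in heterozygous and 1.63 ± 0.0144 in wild-type libraries (SD, n = 3 each). The homozygous ratios (1.6095, 1.5858 and 1.5925) all lay below the wild-type ones (1.645, 1.6212 and 1.6192), and this difference was not tested.

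**Figure D2:**
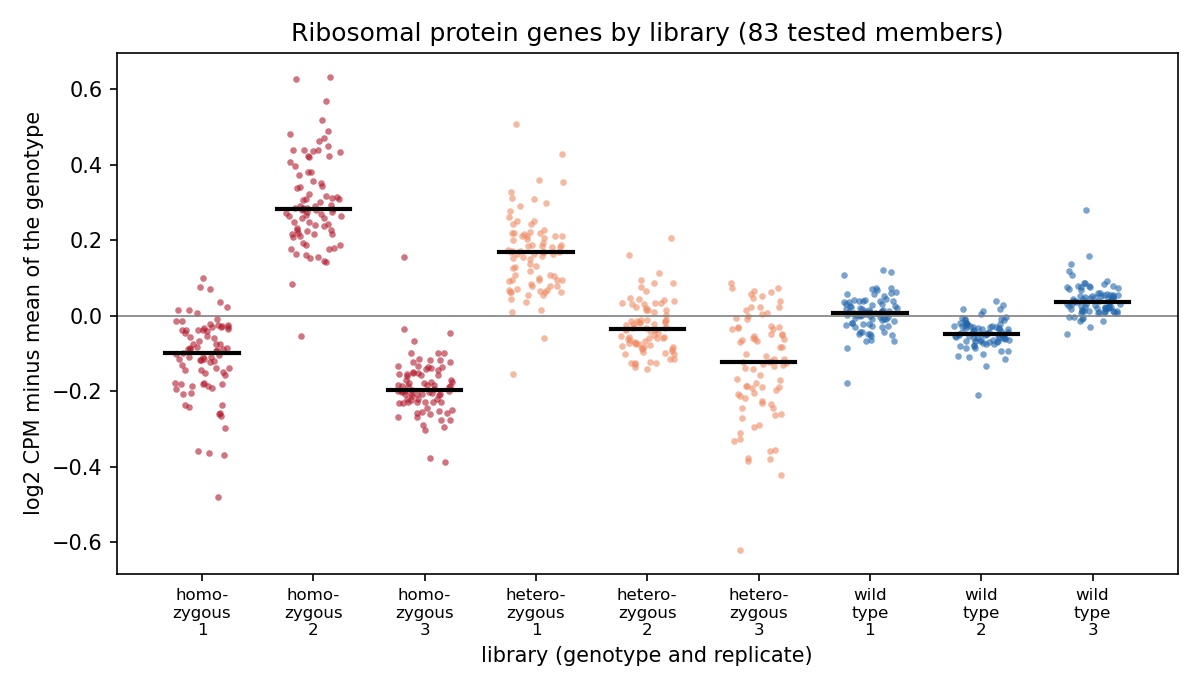
Deviation of each of the 83 tested ribosomal protein genes (points) from the mean of its genotype, in log2 CPM on the y axis, for the 9 libraries on the x axis; the black bars are medians. The cloud of homozygous replicate 2 lies around 0.28 and that of homozygous replicate 3 around -0.20, while the wild-type clouds lie within -0.049 to 0.037.

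The spread within a genotype was accordingly wide in the mutants and narrow in the wild type. The median over members of the SD of log2 CPM was 0.25 in homozygous, 0.15 in heterozygous and 0.053 in wild-type cells, from 3 libraries each. Over all tested genes these medians were 0.21, 0.17 and 0.11, and over the 2036 genes with at least 100 CPM, an abundance closer to that of the members, 0.13, 0.11 and 0.054. The members thus varied more than abundant genes did within the homozygous and the heterozygous group and about as much in the wild type. This is given as a description with no test of the difference. The abundant genes include members and were not matched to them for length. Without homozygous replicate 2 the homozygous median was 0.080, and without heterozygous replicate 1 the heterozygous median was 0.095.

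For most members the shared shift held most of the spread. Each canonical member's 9 deviations were correlated with the median deviation of the other canonical members. Pearson's r was above 0.9 for 59 of the 76 and had a median of 0.95, and all points share the same libraries and scaling, so it is given as a description. Removing the fitted common part took the median within-genotype SD to 0.053, against 0.18 before. The lowest r among canonical members was 0.20, for RPL36A, which has few counts, followed by 0.41 for RPL7. RPL7 and RPL7L1 followed the shift least, with slopes of 0.19 and -0.14 on the common part, while RPS28 and RPS29 followed it most steeply, with slopes of 2.26 and 2.18. Over the 7 libraries left without homozygous replicate 2 and heterozygous replicate 3, r was above 0.9 for 40 of the 76 with a median of 0.91, and the slopes were 0.51 for RPL7, -0.20 for RPL7L1, 1.31 for RPS28 and 1.55 for RPS29. The order of slopes thus changed: RPL26 was then steepest, at 1.77, and RPL17, RPSA and RPL36A, at 0.45, 0.48 and -1.81, lay below RPL7.

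RPS28, a small-subunit protein at the site where messenger RNA leaves the ribosome, had the widest spread of the canonical members with at least 10 CPM. It stood at 213, 409 and 240 CPM in the homozygous replicates, at 249, 189.3 and 114 CPM in the 3 heterozygous libraries, and at 216, 203 and 227 CPM in the wild type. Homozygous replicate 2 is the highest and heterozygous replicate 3 the lowest, and all 3 genotypes overlap. Its log2 fold change was 0.42 ± 0.26 for homozygous over wild type (SE, edgeR adjusted p = 0.353), -0.22 ± 0.26 for heterozygous over wild type (adjusted p = 0.772) and 0.64 ± 0.26 for homozygous over heterozygous (adjusted p = 0.212). With both homozygous replicate 2 and heterozygous replicate 3 left out these were 0.076, 0.027 and 0.049.

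RPS29, a zinc-binding small-subunit protein, is 1 of the members with no pyrimidine run at its listed start. It was at 218, 432 and 232 CPM in homozygous, 248, 198 and 149 CPM in heterozygous and 219, 180 and 229 CPM in wild-type libraries, with the same highest and lowest library as RPS28. RPS12, whose product sits on the head of the small subunit, was at 637, 1051 and 662 CPM in homozygous, 702, 555 and 420 CPM in heterozygous and 594, 581 and 664 CPM in wild-type libraries. RPL26, a large-subunit protein near the exit tunnel that also binds the p53 messenger RNA, was at 63.8, 101 and 66.3 CPM in homozygous, 79.1, 55.8 and 45.9 CPM in heterozygous and 70.8, 61.6 and 64.0 CPM in wild-type libraries. The groups overlap for all 3 genes, and the fold changes of RPS29 (0.49 ± 0.24, adjusted p = 0.234), RPS12 (0.35 ± 0.19, adjusted p = 0.298) and RPL26 (0.24 ± 0.19, adjusted p = 0.491) for homozygous over wild type (log2, SE, edgeR) did not pass the test. With homozygous replicate 2 left out they were 0.10, 0.083 and -0.011. The level of RPL26 is uncertain because it shares exon bases with another annotated locus, as described below.

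RPS19, the gene most often mutated in Diamond-Blackfan anaemia, had 675, 1083 and 697 CPM in homozygous libraries, 692, 588 and 411 CPM in heterozygous libraries and 624, 604 and 669 CPM in wild-type libraries. The homozygous libraries all lie above the wild-type ones, the lowest homozygous value being just above the highest wild-type value. The log2 fold change was 0.37 ± 0.19 (edgeR adjusted p = 0.262) for homozygous over wild type and 0.54 ± 0.19 (adjusted p = 0.165) for homozygous over heterozygous, the second of these the lowest adjusted p of any member in that comparison. These were 0.12 and 0.28 without homozygous replicate 2. RPL18, the other member whose homozygous libraries all exceeded the wild type, had 582, 892 and 568 CPM in homozygous, 614, 534 and 387 CPM in heterozygous and 544, 532 and 568 CPM in wild-type libraries, with a log2 fold change of 0.31 ± 0.18 for homozygous over wild type (adjusted p = 0.313), which was 0.068 without homozygous replicate 2. The lowest homozygous and the highest wild-type library are both at 568 CPM after rounding. Of the 19 Diamond-Blackfan anaemia genes tested, 0 were called in any comparison, which follows from their being members, none of which was called.

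RPS15A, a small-subunit protein, had the lowest adjusted p of any member for homozygous over wild type. It stood at 113, 179 and 104 CPM in homozygous, 118, 95.4 and 95.03 CPM in heterozygous and 106, 97.7 and 100 CPM in wild-type libraries, so homozygous replicate 2 is high and the other homozygous values lie on either side of the highest wild-type library. Its log2 fold change was 0.39 ± 0.17 (edgeR adjusted p = 0.185). With homozygous replicate 3 left out it was 0.54 ± 0.16 and called (adjusted p = 0.0423), together with RPL39L, in a fit that called 5.67% of all genes higher. Without homozygous replicate 2 it was 0.099 ± 0.10 and no member was called.

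The 3 canonical members with the narrowest spread encode large-subunit proteins with long coding sequences. RPL7 had 1031, 1081 and 954 CPM in homozygous, 1105, 1027 and 1166 CPM in heterozygous and 1033, 1099 and 1078 CPM in wild-type libraries, and unlike most members it was highest in heterozygous replicate 3. RPL5, which carries the 5S ribosomal RNA together with RPL11, had 988, 1119 and 924 CPM in homozygous, 1032, 933 and 986 CPM in heterozygous and 1028, 1012 and 1053 CPM in wild-type libraries. RPL4, which lines the exit tunnel of the large subunit, had 2129, 2323 and 1891 CPM in homozygous, 2161, 1986 and 2070 CPM in heterozygous and 2154, 2067 and 2155 CPM in wild-type libraries. All groups overlap for these genes, and their log2 fold changes for homozygous over wild type were -0.066 ± 0.079, -0.029 ± 0.083 and -0.0078 ± 0.085 (SE), with edgeR adjusted p of 0.655, 0.869 and 0.968.

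**Figure D3:**
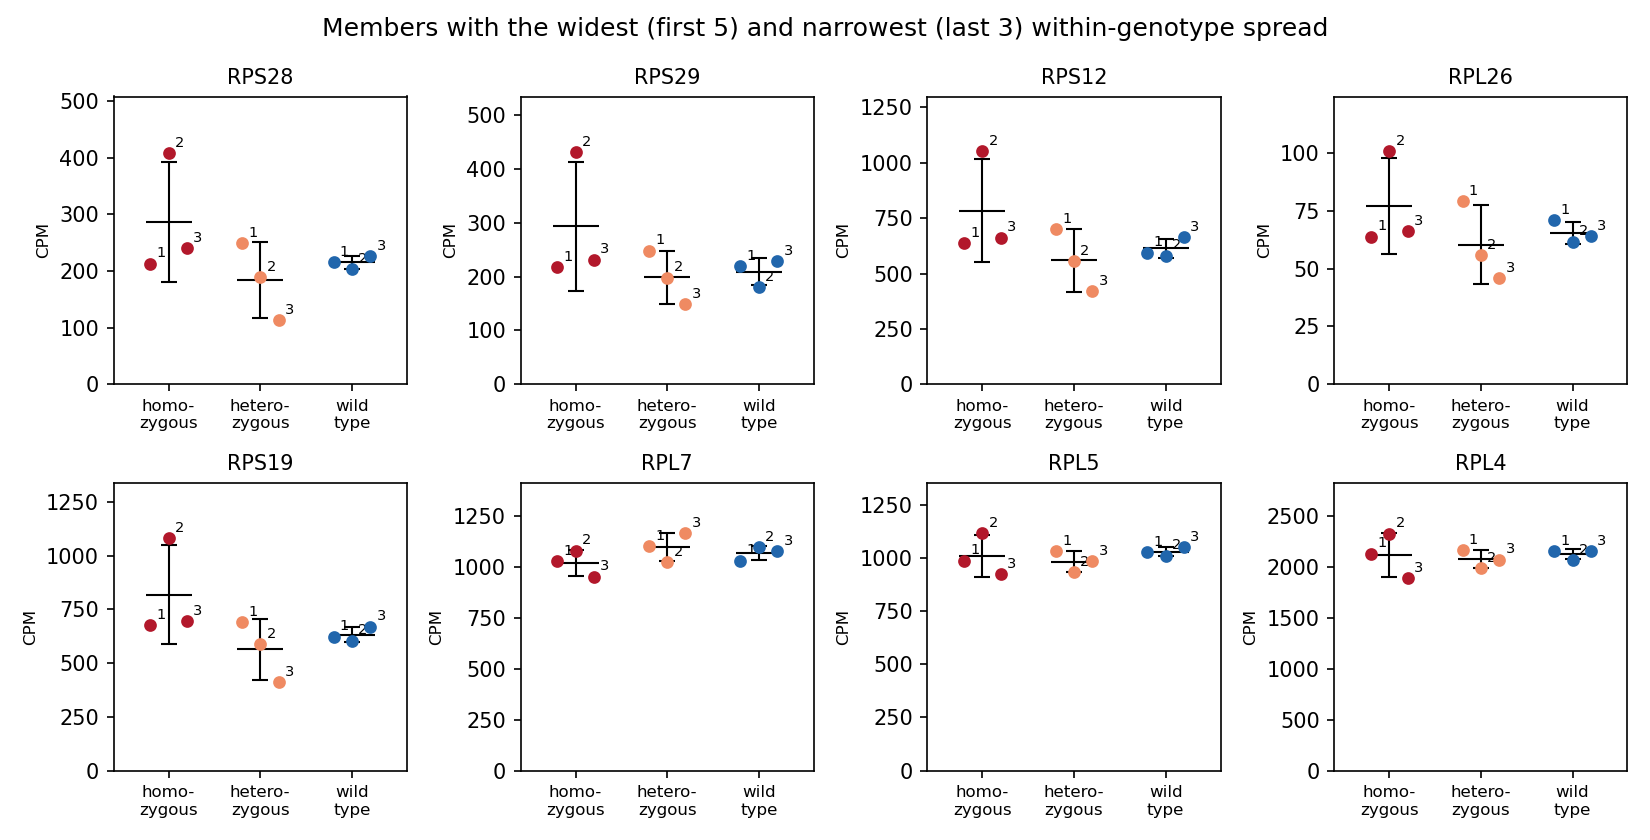
CPM (y axis, from 0) in the 3 libraries of each genotype (points, numbered by replicate) for the 5 canonical members with the widest and the 3 with the narrowest within-genotype spread; bars are the mean and SD. In the first 5 panels homozygous replicate 2 is the highest point of all, at 409 CPM for RPS28 and 1083 CPM for RPS19, and heterozygous replicate 3 the lowest. The points of RPL7, RPL5 and RPL4 lie closer together. For RPL5 and RPL4 homozygous replicate 2 is still the highest point (1119 and 2323 CPM) and homozygous replicate 3 the lowest (924 and 1891 CPM).

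The deviation of a member went with the length of its coding sequence in several libraries, most strongly in the homozygous ones. The 76 canonical members were split into 3 classes by coding length. In homozygous replicate 2 the median deviation was 0.38 for the 25 shortest (75 to 399 nt), 0.29 for the next 25 (405 to 564 nt) and 0.22 for the 26 longest (576 to 1281 nt). The median SD within the homozygous genotype was 0.35, 0.26 and 0.21 in these classes, within the heterozygous genotype 0.19, 0.19 and 0.10, and within the wild type 0.060, 0.048 and 0.048. Without homozygous replicate 2 the homozygous values were 0.077, 0.060 and 0.092, with no order by length. Without heterozygous replicate 3 the heterozygous values were 0.17, 0.15 and 0.12, still ordered by length. Across the 76 genes, which are not independent replicates, Spearman's rho between coding length and deviation was -0.64 in homozygous replicate 2, 0.54 in homozygous replicate 1 and 0.43 in homozygous replicate 3, and between coding length and the homozygous over wild-type log2 fold change it was -0.58, or -0.37 without homozygous replicate 2. Against the annotated mRNA length the same 4 rhos were weaker, at -0.25, 0.23, 0.22 and -0.22, and the last was -0.072 without homozygous replicate 2. Because deviations within a genotype cancel, the rhos of its libraries are not independent. Outside the homozygous group the coding-length rhos largest in size were -0.36 in heterozygous replicate 1, 0.34 in wild-type replicate 2 and 0.27 in heterozygous replicate 3. The median log2 fold change for homozygous over wild type was 0.21, 0.16 and 0.10 from the shortest to the longest class.

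Genes outside the set were ordered by mRNA length in the same libraries. The members are short, with a median principal mRNA of 814 nt against 3135 nt for the other genes with at least 10 CPM, and their median GC content was 49.8% against 48.8%. The 8964 other genes with a length were divided into 8 bins of mRNA length. In homozygous replicate 2 the median deviation was 0.17 in the shortest bin and -0.20 in the longest, and in heterozygous replicate 1 it was 0.10 and -0.12. The gradient ran the other way in homozygous replicate 3, from -0.10 for the shortest bin to 0.12 for the longest, and in heterozygous replicate 3, from -0.075 to 0.085. Deviations within a genotype cancel, so opposite gradients in its libraries are not separate observations. In the wild-type libraries the largest size of any bin was 0.026. GC content moved with the libraries as well: in homozygous replicate 2 the bin lowest in GC had a median of -0.18 and the highest 0.068, and in heterozygous replicate 3 these were 0.17 and -0.11.

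When each library's curve against mRNA length was removed through an offset in the fit, the member medians were 0.023, -0.055 and 0.082 for homozygous over wild type, heterozygous over wild type and homozygous over heterozygous, beside medians of 0.036, 0.011 and 0.027 for all genes under the same offset. The median within-genotype SD of members was then 0.11 in homozygous, 0.10 in heterozygous and 0.037 in wild-type cells, and 0 members were called. No offset for GC content was fitted, and the part of length or GC in the members' shift was not tested.

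**Figure D4:**
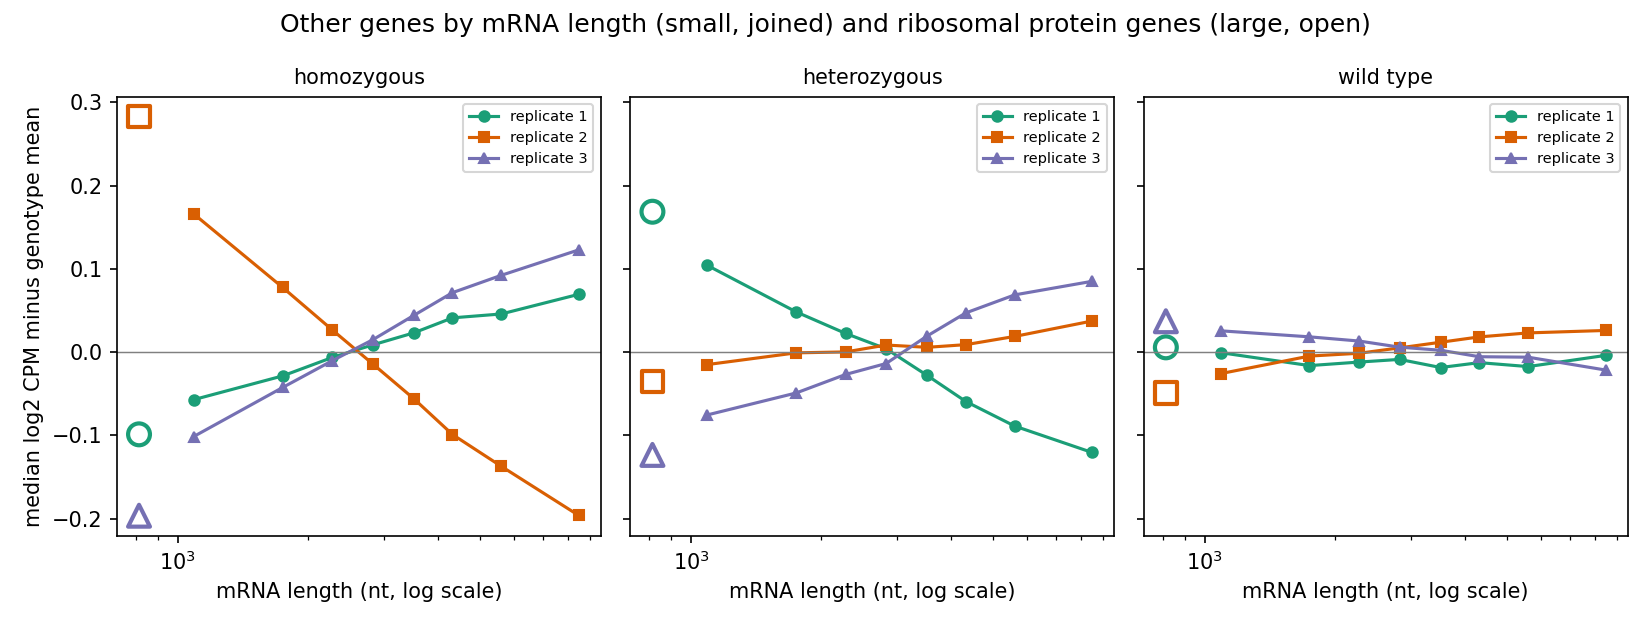
Median deviation from the genotype mean in log2 CPM (y axis) for other genes in 8 bins of mRNA length (x axis, nt, log scale; small joined symbols) and for the 83 tested ribosomal protein genes, placed at the median mRNA length of the canonical members (large open symbols), by genotype and replicate. The homozygous and heterozygous lines fan out at both ends, from 0.17 to -0.20 in homozygous replicate 2, and in these libraries the ribosomal protein genes lie beyond the shortest bin on the same side; the wild-type lines reach at most 0.026 in size.

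The genes outside the set whose deviations over the 9 libraries were most like the members' median were COX7A2, HMCES, TRAPPC2L, ATP5MC2 and COX5B, with r between 0.991 and 0.996 among 9239 genes with at least 10 CPM. COX7A2, a subunit of cytochrome oxidase with a short message, was at 96.5, 132 and 89.9 CPM in homozygous, 101, 86.8 and 82.8 CPM in heterozygous and 95.3, 90.2 and 96.7 CPM in wild-type libraries. It has the highest and lowest libraries that most members have, which its choice by likeness to the members makes likely. In the order named, the principal mRNAs of these genes are 773, 1952, 2215, 878 and 712 nt long. The length bins that hold HMCES and TRAPPC2L had median deviations of 0.078 and 0.027 in homozygous replicate 2. The likeness of these genes is over libraries that share the length gradient, and nothing further was read from it.

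The proteins of the P-stalk, the flexible arm on the large subunit that recruits elongation factors, differed in how far they followed the shift. RPLP0, the base of the stalk, was at 2060, 2320 and 1886 CPM in homozygous, 2089, 1957 and 1897 CPM in heterozygous and 2036, 2000 and 2058 CPM in wild-type libraries. RPLP1 was at 903, 1460 and 956 CPM in homozygous, 1020, 770 and 707 CPM in heterozygous and 914, 862 and 972 CPM in wild-type libraries. RPLP2, its partner, was at 437, 669 and 425 CPM in homozygous, 462, 383 and 330 CPM in heterozygous and 412, 407 and 443 CPM in wild-type libraries. The short RPLP1 and RPLP2 (coding lengths of 342 and 345 nt) had homozygous over wild-type log2 fold changes of 0.27 ± 0.17 (edgeR adjusted p = 0.366) and 0.28 ± 0.16 (adjusted p = 0.321), and the longer RPLP0 (951 nt) 0.040 ± 0.085 (adjusted p = 0.817). When homozygous replicate 2 was left out, RPLP1 was at 0.020 and RPLP2 at 0.034.

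RPL11 and RPL23, which with RPL5 can bind MDM2, did not pass the test in any comparison. RPL11 averaged 789 ± 138 CPM in homozygous, 763 ± 55.8 CPM in heterozygous and 732 ± 37.7 CPM in wild-type cells (SD, n = 3 each), and RPL23 averaged 746 ± 106, 709 ± 55.9 and 717 ± 12.5 CPM in the same order of genotypes. The homozygous over wild-type log2 fold changes were 0.11 ± 0.11 for RPL11 (edgeR adjusted p = 0.599) and 0.056 ± 0.10 for RPL23 (adjusted p = 0.777). Of the 8 tested genes on the list for ribosomal stress and p53, 0 were called in each comparison, where 7.68%, 1.86% and 2.21% of all tested genes were. In edgeR 2 of the 8 had an unadjusted p below 0.05 for homozygous against wild type, where 23.2% of all genes did. The list's median log2 fold change there was -0.25, against 0.010 for all genes. RPS27A, which is made as a fusion with ubiquitin, averaged 882 ± 158 CPM in homozygous, 768 ± 83.2 CPM in heterozygous and 792 ± 41.9 CPM in wild-type cells.

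Among the X-linked members, RPS4X averaged 1682 ± 239 CPM in homozygous, 1606 ± 80.4 CPM in heterozygous and 1576 ± 20.2 CPM in wild-type cells (SD, n = 3 each). RPL10, part of the late-assembling core of the large subunit, averaged 1229 ± 172, 1031 ± 159 and 1124 ± 53.3 CPM in that order of genotypes. RPL39, among the smallest proteins of the large subunit, averaged 398 ± 112, 321 ± 43.5 and 345 ± 10.1 CPM. Their adjusted p for homozygous against wild type in edgeR were 0.590, 0.553 and 0.449.

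Per kilobase of the principal annotated mRNA, the highest wild-type levels were those of RPS2, RPS27 and RPS18, at 2557, 1768 and 1719 CPM per kilobase. The lowest were those of RPL17, RPL36A and RPS10, at 12.5, 7.81 and 2.82 CPM per kilobase, and the median of the 76 canonical members was 868. The order among high members depends on the transcript model: 7 of the 76 have a model over 2000 nt, such as RPL37, whose rank of 72 by mRNA length is 8 by coding length, and RPL41, with a coding sequence of 75 nt, ranks first by coding length and 6 by mRNA length. RPL17, RPL36A and RPS10 were the 3 lowest on both scales. These 3 share 81.5%, 77.6% and 77.0% of their mRNA exon bases, on the same strand, with the annotated readthrough genes RPL17-C18orf32, RPL36A-HNRNPH2 and RPS10-NUDT3, and reads that fall on more than 1 gene are not counted in HTSeq's default mode, so their levels are uncertain. Which mode was used is not known here. RPL26 shares 59.0% with another annotated locus and is likewise uncertain. RPS15A and RPL18 share smaller parts, 27.2% and 26.4%, with other annotated loci, and their levels are to that extent uncertain too.

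RPS10 had 1.34, 2.98 and 1.69 CPM in homozygous, 1.89, 1.497 and 1.48 CPM in heterozygous and 1.58, 1.67 and 2.20 CPM in wild-type libraries. RPL36A had 2.76, 4.13 and 3.99 CPM in homozygous, 2.80, 3.61 and 3.01 CPM in heterozygous and 3.24, 3.08 and 3.73 CPM in wild-type libraries. RPL17 had 8.35, 11.3 and 8.47 CPM in homozygous, 8.52, 8.29 and 5.76 CPM in heterozygous and 9.35, 8.65 and 10.1 CPM in wild-type libraries. RPL17 is the member whose heterozygous libraries all lay below the wild type, with a log2 fold change of -0.31 ± 0.17 (edgeR adjusted p = 0.481), and the other pairs of groups overlap for all 3 genes.

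The paralogs are relatives of a ribosomal protein gene, and some of them can take its place in some tissues. Most were far below their parent. Per kilobase of coding sequence, RPL39L, known from the male germ line, was at 4.50 ± 0.716% of RPL39 in homozygous, 4.95 ± 0.136% in heterozygous and 3.96 ± 0.0895% in wild-type cells (SD, n = 3 each). RPS27L, a target of p53, was at 2.67 ± 0.216%, 2.94 ± 0.143% and 3.24 ± 0.0533% of RPS27 in the same order of genotypes. RPL7L1 was at 17.2 ± 1.40%, 17.7 ± 2.03% and 18.2 ± 0.604% of RPL7. RPL22L1 was at 42.1 ± 5.14%, 47.9 ± 9.62% and 47.7 ± 0.906% of RPL22. RPL26L1 was at 45.0 ± 6.27%, 55.8 ± 13.4% and 49.8 ± 2.99% of RPL26, and RPL36AL exceeded RPL36A, but both of these parents are among the uncertain genes named above. RPL3L, the form found in heart and skeletal muscle, had at most 0.334 CPM in any library. Paralogs and parents share sequence, and reads that fit both could not be traced here.

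RPL39L had 18.3, 21.5 and 13.3 CPM in homozygous, 17.8, 16.6 and 13.3 CPM in heterozygous and 14.3, 13.0 and 13.8 CPM in wild-type libraries. The first 2 libraries of each mutant are above the wild type and the third is within it. Its log2 fold change was 0.38 ± 0.17 for homozygous over wild type (edgeR adjusted p = 0.198) and, without homozygous replicate 3, 0.55 ± 0.14 (adjusted p = 0.0233), beside 0.19 ± 0.16 without homozygous replicate 2 (adjusted p = 0.636). RPS27L had 17.2, 21.7 and 17.4 CPM in homozygous, 21.4, 17.3 and 18.5 CPM in heterozygous and 20.7, 20.3 and 20.8 CPM in wild-type libraries, with overlapping groups and a log2 fold change of -0.12 ± 0.12 (adjusted p = 0.572).

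RPL7L1 did not follow the common shift, with a slope of -0.14 and r of -0.35 over the 9 libraries. Its deviation was opposite in sign to the members' median in homozygous replicates 1 and 2 (0.10 and -0.055). In homozygous replicate 3 the signs were the same (-0.045 for RPL7L1). RPL7L1 had 193, 173 and 175 CPM in homozygous, 190.6, 211 and 195 CPM in heterozygous and 199, 198 and 202 CPM in wild-type libraries. All homozygous values lie below all wild-type values, with a log2 fold change of -0.15 ± 0.076 (edgeR adjusted p = 0.257). RPL22L1, which can replace RPL22, had 29.8, 43.9 and 31.1 CPM in homozygous, 43.9, 38.4 and 29.2 CPM in heterozygous and 36.4, 36.0 and 39.3 CPM in wild-type libraries, and its groups overlap. With heterozygous replicate 3 and homozygous replicate 2 both left out, RPL22L1 was called lower in homozygous than in heterozygous cells, with a log2 fold change of -0.43 ± 0.096 (adjusted p = 0.0440), the only member called in that setting, where 1.05% of all genes were called lower.

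Among genes that act with the ribosomal proteins, some were called between homozygous and wild-type cells, where 7.68% of all tested genes were. Of 38 tested genes for ribosome biogenesis, 3 were called for homozygous against wild type, all lower: WDR43, GNL3 and NOLC1, nucleolar factors needed for rRNA processing and subunit assembly. GNL3, also called nucleostemin, averaged 96.2 ± 0.473 CPM in homozygous, 116 ± 6.67 CPM in heterozygous and 129 ± 10.6 CPM in wild-type cells (SD, n = 3 each), with a log2 fold change of -0.43 ± 0.082 (edgeR adjusted p = 0.0067). WDR43 changed by -0.46 ± 0.086 (adjusted p = 0.0055) and NOLC1 by -0.34 ± 0.078 (adjusted p = 0.0195). GNL3 no longer passed with wild-type replicate 2 left out (edgeR adjusted p = 0.0589), nor did NOLC1 without wild-type replicate 2 or 3 or homozygous replicate 2 (adjusted p up to 0.114). At an unadjusted p below 0.05 the list had 18 of 38, against 23.2% of all genes. Its median log2 fold change was -0.20, against 0.010 for all genes. For heterozygous over wild type it was -0.14, against 0.0037, and for homozygous over heterozygous -0.059, against 0.0068. Of the 38, 0 were called for heterozygous against wild type or between the mutants, where 1.86% and 2.21% of all tested genes were. The list's median deviations in wild-type replicates 1, 2 and 3 were -0.084, 0.048 and 0.062.

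Of 15 genes of RNA polymerase I and its factors, which make ribosomal RNA, POLR1G alone was called, at -0.52 ± 0.10 for homozygous over wild type (log2, edgeR adjusted p = 0.0068). Of 24 initiation factors, EIF3J alone was called, at -0.33 ± 0.090 (adjusted p = 0.0407). Of 15 regulators of ribosomal protein genes, MYCN was called higher in homozygous than in wild-type cells (13.2 ± 1.22 against 9.15 ± 1.10 CPM, log2 fold change 0.53 ± 0.14, adjusted p = 0.0345) and LARP4 lower (98.3 ± 19.6 against 141 ± 8.95 CPM, -0.52 ± 0.14, adjusted p = 0.0415). MYC averaged 102 ± 6.77 CPM in homozygous, 89.2 ± 13.8 CPM in heterozygous and 118 ± 5.35 CPM in wild-type cells, and LARP1, which binds the TOP tract, 384 ± 28.7, 376 ± 27.1 and 426 ± 16.4 CPM, and neither passed the test. Each of these calls was lost when some single library was left out: POLR1G without wild-type replicate 2 (edgeR adjusted p = 0.0563), MYCN without wild-type replicate 2 or 3 or homozygous replicate 1 or 2 (adjusted p up to 0.158), EIF3J without any of wild-type replicates 2 and 3, heterozygous replicate 2 and the 3 homozygous libraries (up to 0.182), and LARP4 without any wild-type library, heterozygous replicate 2 or homozygous replicate 1 or 2 (up to 0.175). In these 3 lists 0 genes were called for heterozygous against wild type or between the mutants, where 1.86% and 2.21% of all tested genes were. For homozygous against wild type 7.68% of all tested genes were called, and no list was tested against that share.

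Other gene lists followed the library shift to different degrees. The 76 tested mitochondrial ribosomal proteins, whose median mRNA is 1291 nt, had median deviations of -0.073, 0.17 and -0.10 in the homozygous replicates and 0.072, -0.026 and -0.052 in the heterozygous ones. The 13 snoRNA host genes, many with a TOP tract, had -0.19, 0.23 and -0.052 in homozygous and 0.14, -0.0094 and -0.13 in heterozygous replicates. The 19 translation factors with TOP transcripts, whose median mRNA is 2207 nt, had 0.031, 0.068 and -0.10 in homozygous and 0.038, -0.039 and 0.0022 in heterozygous replicates. Of these 19, 0 were called in each comparison, where 7.68%, 1.86% and 2.21% of all tested genes were. Markers of pluripotent cells also differed between replicates, with median deviations of 0.35, 0.32 and -0.68 over 6 genes in the homozygous libraries, and their part in the members' spread was not tested.

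MRPS21 was the mitochondrial ribosomal protein gene that was called, out of 76. Of all tested genes, 7.68% were called for homozygous and 1.86% for heterozygous against wild type. It stood at 86.8, 116 and 84.0 CPM in homozygous, 90.7, 76.5 and 67.7 CPM in heterozygous and 44.5, 43.3 and 43.8 CPM in wild-type libraries, so all libraries of both mutants are above the wild type. Its log2 fold change was 1.13 ± 0.13 for homozygous over wild type (edgeR adjusted p = 0.00019) and 0.84 ± 0.13 for heterozygous over wild type (adjusted p = 0.0046), beside 0.29 ± 0.13 between the mutants (adjusted p = 0.261). Both calls held with each of the 9 libraries left out in turn (adjusted p at most 0.0019 and 0.0311).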

How the data were processed

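The authors deposited whole-number counts for Ensembl genes in a single table of 9 columns. Per the submitters' processing notes, the authors used FastQC, Trimmomatic, HISAT2, SAMtools and HTSeq on hg38, and per the labels total RNA was sequenced. Neither the annotation nor the strand setting is given in the sources used here. Fits used edgeR 4.0.16 (R 4.3.3) with filterByExpr by genotype, TMM scaling, genotype as the only factor, all 9 libraries and Benjamini-Hochberg adjustment over 16837 genes, called below 0.05. The common biological coefficient of variation was 0.121. DESeq2 1.42.0 and limma-voom (limma 3.58.1) were alternatives. Lengths are those of principal transcripts in GENCODE 29, and the length curve was a loess fit (span 0.5) per library. Replicates of a genotype differed by more than counting noise. RPL10L was not analysed here. The members, gene lists and tests were chosen with earlier results of these data known. Named members are role groups, paralogs with their parents, members called in any comparison, the 5 widest and 3 narrowest within-genotype SDs at 10 CPM or more, and the 3 highest and 3 lowest levels. RPS15A, RPL18, RPL37 and RPL41 were named after their values were seen, and the values without single libraries were added for them and for called list genes after seeing the data.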

Additional observations from a re-analysis of the deposited data

How the results depend on the processing

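Across scalings (RLE, upper quartile, TMM without the members), filters, tools, a fit of only the libraries compared, a 1.5-fold test and each library left out in turn, 0 members were called for heterozygous against wild type and for homozygous against heterozygous, and 0 to 2 for homozygous against wild type, the 2 (RPS15A and RPL39L) without homozygous replicate 3. Without both heterozygous replicate 3 and homozygous replicate 2, a setting chosen after seeing the data, 1 member (RPL22L1) was called between the mutants and the median there was -0.034. With 1 library left out, the member median ranged from -0.015 to 0.23 for homozygous over wild type, from -0.12 to 0.0057 for heterozygous over wild type and from 0.023 to 0.27 between the mutants. The median within-genotype SD ranged from 0.080 to 0.35 in homozygous, 0.095 to 0.20 in heterozygous and 0.035 to 0.057 in wild-type cells. With the length curve removed, also chosen after seeing the data, it was 0.11 in homozygous and 0.10 in heterozygous cells. The deviations of same-numbered replicates had correlations from -0.47 to 0.47. The labels name no pairing, and these correlations cannot decide whether there was one. With the replicate block 0 members were called and the medians were 0.13, -0.049 and 0.19 in the same order of comparisons. Of 2079 alternative values for 33 named members, none of which was called at first, the 3 above were called. With 3 libraries a genotype and a median standard error of 0.12, small differences are not detectable.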
